A study of Mus musculus with 18 samples.

Results

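Hair shaft keratins and keratin-associated proteins were followed over 18 arrays of mouse skin. The set holds every probe set whose platform annotation gives 1 symbol that begins with Krtap, or that is 1 of 13 hair keratin symbols running from Krt31 to Krt36 and from Krt81 to Krt86. It came to 55 of the 45037 probe sets on the array and 50 of the 18193 genes named by a single-symbol probe set. Of these, 12 probe sets were for 12 hair keratins and 43 were for 38 keratin-associated protein genes. Krt85 was not named by a single-symbol probe set and is not analysed here. A further 6 probe sets carried several symbols, at least 1 of them of this kind, and were kept apart. By chromosome, 20 of the genes were on chromosome 16, 17 on chromosome 11, 5 each on chromosomes 7 and 15, 2 on chromosome 10 and 1 on chromosome 1.

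RNA was profiled from K14NICDER transgenic and wild-type mice, in dermis, epidermis and whole skin, with 3 arrays in each of the 6 groups. K14NICDER drives the intracellular domain of Notch from the keratin 14 promoter, which is active in basal keratinocytes including those of the hair follicle, as a fusion that 4-hydroxytamoxifen (4OHT) activates. All mice, wild type included, were females of a C57Bl6xCBA F1 background, 7 weeks old at the start, and received 4OHT for 14 days, so effects of 4OHT itself are common to both genotypes. The stated aim was to set transgenic epidermis and dermis against wild type. The labels do not say whether the 3 arrays of a group came from separate animals. The p-values below therefore set a difference against the variation between these arrays, which may be technical variation only.

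The hair shaft is built by cells that leave the hair matrix and harden as they move up the follicle. They first fill with hair keratins, paired from acidic type I chains (the Krt30s, on chromosome 11) and basic type II chains (the Krt80s, on chromosome 15), and then with keratin-associated proteins, small proteins rich in cysteine or in glycine and tyrosine that embed and crosslink the keratin filaments. Growing (anagen) follicles make these transcripts and resting (telogen) follicles do not, so the genes are commonly read as a sign of hair cycle stage. In bulk samples such as these, fewer cells of a type and less RNA per cell cannot be told apart.

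The genes lie in clusters, and many of their promoters carry the letters of a TATA box. The RefSeq promoter table (mouse build GRCm38.p6) held 43 of the 50 genes. The letters TATAAA, the core of the TATA box, were present on the gene's strand within the 50 bases before the start in 27 of these 43 promoters (62.8%), against 2.63% of all 32851 promoters in the table. Over 250 bases the shares were 74.4% and 7.59%. The letters CTTTGAA, the core of a site for Lef1 described in hair keratin promoters, occurred on either strand within 250 bases in 10 of 43 (23.3%), against 4.46% of all promoters. These are matches of letters only. The letters of the 2 motifs do not allow a match of one to overlap a match of the other. The 120 bases before the start are shown for 6 members that carry the results: the 4 keratin-associated protein genes that rose in transgenic dermis over transgenic epidermis or were brightest on an array that stood apart, and the brightest member of each class. Each is written 5′ to 3′ on the gene's strand, and the capitals mark the TATAAA nearest the start.
Krtap3-1, chr11:99566631-99566750, minus strand: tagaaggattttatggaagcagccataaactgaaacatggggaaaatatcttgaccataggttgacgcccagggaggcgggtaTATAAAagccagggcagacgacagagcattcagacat
Krtap9-3, chr11:99598107-99598226, minus strand: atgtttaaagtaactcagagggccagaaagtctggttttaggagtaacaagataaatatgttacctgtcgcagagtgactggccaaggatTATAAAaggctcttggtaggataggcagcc
Krtap13-1, chr16:88728742-88728861, plus strand: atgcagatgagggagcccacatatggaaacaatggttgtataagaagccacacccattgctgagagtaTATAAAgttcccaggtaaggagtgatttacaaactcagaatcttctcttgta
Krtap8-1, chr16:89487953-89488072, minus strand: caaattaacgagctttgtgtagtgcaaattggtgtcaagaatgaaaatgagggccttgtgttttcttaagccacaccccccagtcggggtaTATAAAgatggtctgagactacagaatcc
Krtap5-1, chr7:142297135-142297254, minus strand: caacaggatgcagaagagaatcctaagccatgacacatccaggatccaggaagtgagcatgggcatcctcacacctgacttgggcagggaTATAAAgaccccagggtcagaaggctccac
Krt32, chr11:100088270-100088389, minus strand: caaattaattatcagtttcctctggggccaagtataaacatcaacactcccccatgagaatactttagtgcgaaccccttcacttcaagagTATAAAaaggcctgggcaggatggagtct
In these 6 windows the motif began 37 bases before the start in Krtap3-1, 30 in Krtap9-3, 52 in Krtap13-1, 29 in Krtap8-1, 30 in Krtap5-1 and 29 in Krt32.

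Values are log2 signals as deposited, and a difference of 1 is a doubling of the linear signal. The array-wide median lay between 4.36 and 5.18 on every array, and most members lay below it. The members' own median on each array was 4.45, 2.44 and 2.59 in transgenic dermis, against 1.79, 0.37 and 0.55 in wild-type dermis. It was 1.46, 2.17 and 1.20 in transgenic epidermis, against 3.35, 1.70 and 2.56 in wild-type epidermis. In whole skin it was 3.64, 2.28 and 0.35 in transgenic mice, against 0.92, 2.02 and 1.14 in wild-type mice. The 3 transgenic dermis arrays were all above the 3 wild-type dermis arrays, while the genotypes overlapped in epidermis and in whole skin. Together the 55 probe sets made up between 0.00515% and 0.0226% of an array's summed linear signal, so the comparisons below concern mostly dim probe sets.

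**Figure D1:**
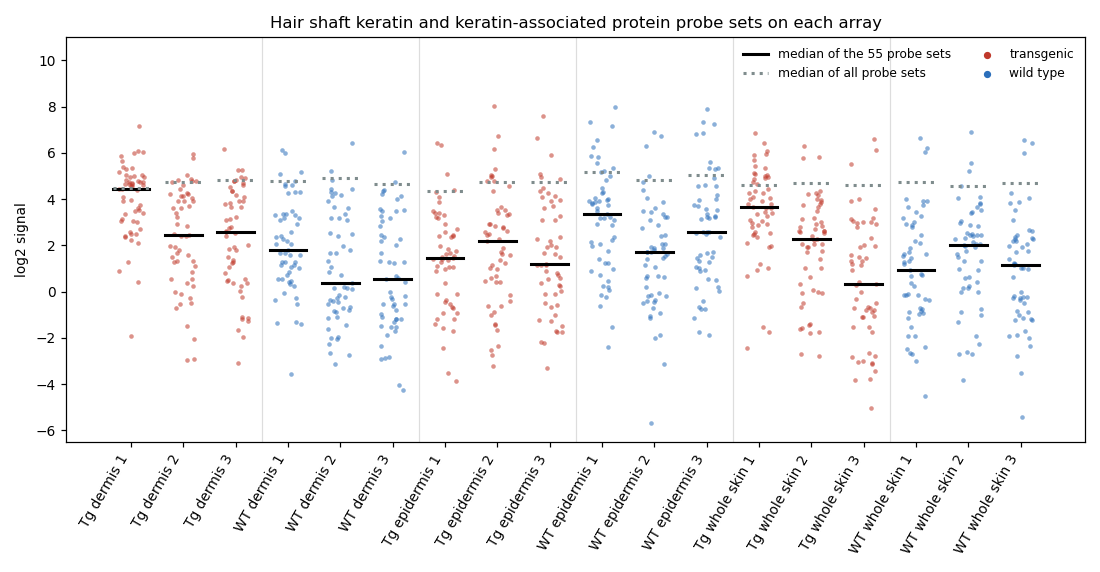
Log2 signal of each of the 55 member probe sets on each of the 18 arrays, one column of points an array, grouped by tissue with transgenic left of wild type; black bars are the median of the 55 and dotted grey bars the median of all 45037 probe sets on that array (Tg, transgenic; WT, wild type). The first transgenic dermis array, with a member median of 4.45, and the first transgenic whole skin array, with 3.64, stand above the other arrays of their groups.

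By the number of members above the array's own median, 1 array in each of 2 groups stood apart. On transgenic dermis replicate 1, 27 of 55 members were above the array's own median, and on transgenic whole skin replicate 1, 17 were. On the other 16 arrays the number was between 2 and 10. Among the 3 transgenic dermis arrays, 36 of 55 members were highest on replicate 1 and 23 exceeded both other arrays by more than 1 log2 unit. Over all probe sets these shares were 29.6% and 7.56%. Among the 3 transgenic whole skin arrays, 40 of 55 members were highest on replicate 1 and 33 by more than 1, against 29.2% and 2.84% of all probe sets. Of the 36 members highest on transgenic dermis replicate 1, 31 were keratin-associated proteins. Krtap8-1, a protein rich in glycine and tyrosine, was the brightest member on both arrays, at 7.17 in transgenic dermis replicate 1 and 6.87 in transgenic whole skin replicate 1. Wild-type arrays also differed within their groups. On wild-type dermis replicate 1, 32 of 55 members were highest and 18 by more than 1, against 34.5% and 6.23% of all probe sets. On wild-type whole skin replicate 2 these numbers were 26 and 14, against 30.7% and 2.53%. On wild-type epidermis replicate 1 they were 31 and 14, against 43.4% and 11.3%. The labels do not say that the arrays sharing a number came from the same mouse. Results that rest on the 2 transgenic arrays are given with and without them.

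**Figure D2:**
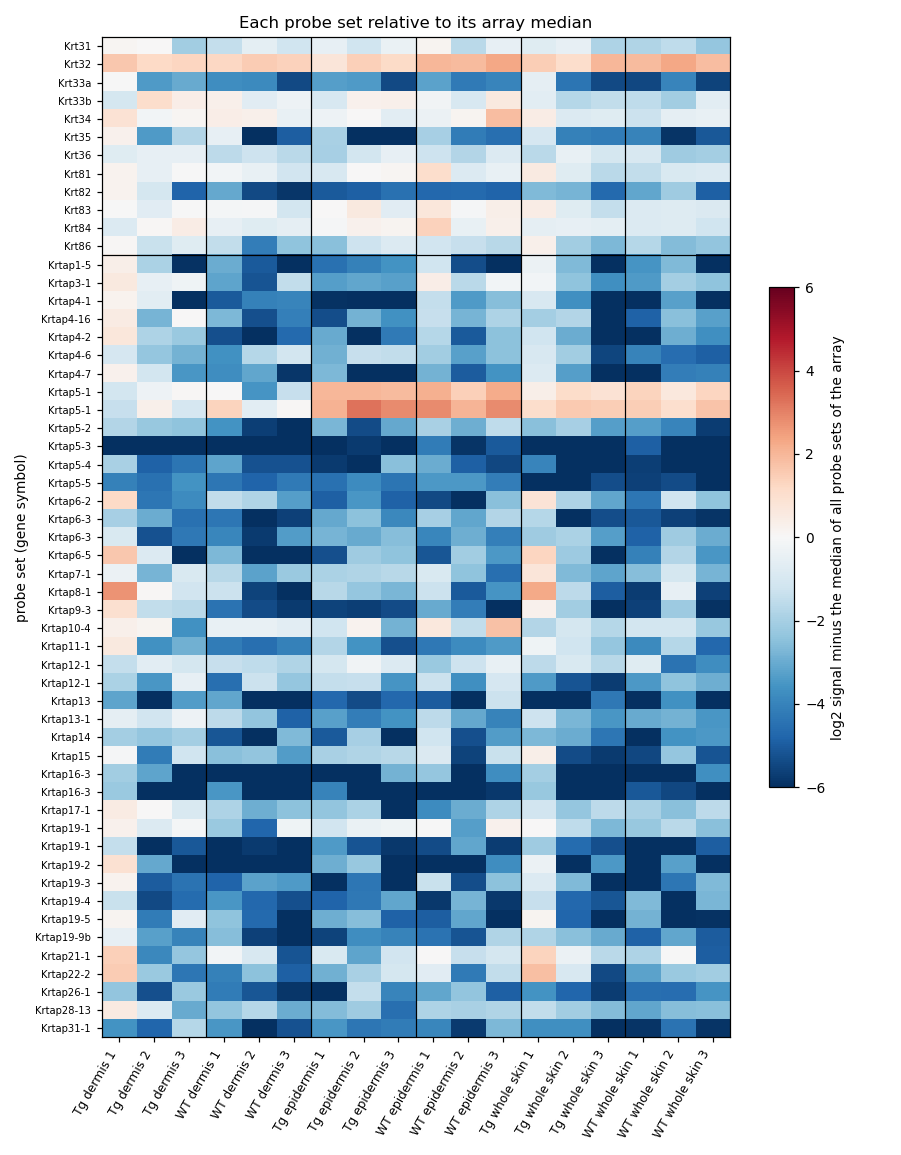
Heat map of the log2 signal, minus the array's median over all probe sets, of the 55 member probe sets (rows, hair keratins first and keratin-associated proteins by family) on the 18 arrays (columns, transgenic left of wild type within a tissue). Krt32 lies above the array median on all 18 arrays and the Krtap5-1 probe sets on 15 and 14 of them, and a broad band of keratin-associated proteins is bright on the first transgenic dermis and first transgenic whole skin arrays.

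The median of the hair keratins lay between 2.76 and 4.91 over the 18 arrays, and that of the keratin-associated proteins between -0.65 and 4.10. Signals of different probe sets depend on their probes, so the order of genes by signal is not an order of transcript levels. Krt32, a type I keratin of the hair cuticle in human hair, had the highest mean signal of the hair keratins and lay above the array median on all 18 arrays. It measured 6.06, 5.94 and 6.15 in transgenic dermis, against 6.0, 6.41 and 6.02 in wild-type dermis. In epidermis it measured 5.09, 6.17 and 5.92 in transgenic mice, against 7.15, 6.72 and 7.35 in wild-type mice. In whole skin the values were 6.07, 5.78 and 6.61 in transgenic mice, against 6.64, 6.89 and 6.55 in wild-type mice. The genotypes did not overlap in epidermis and overlapped in dermis and whole skin.

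The other hair keratins fell into 2 groups by signal. Over the 18 arrays Krt34 averaged 4.65, Krt84 4.46, Krt83 4.44, Krt81 4.28, Krt33b 4.21, Krt31 3.74, Krt36 3.52 and Krt86 3.07. Krt31, Krt33b, Krt34, Krt81, Krt83 and Krt86 are keratins of the hair cortex, and Krt84 is known in human tongue papillae. These 8 lay above the array median on 0 to 8 of 18 arrays. A second group was near the bottom of the scale on most arrays: Krt35, made by the earliest shaft precursors, averaged 1.07, Krt33a of the cortex averaged 0.94 and Krt82 of the hair cuticle averaged 0.91. These 3 reached their highest values on transgenic dermis replicate 1, at 4.74 for Krt35, 4.44 for Krt33a and 4.69 for Krt82. Krt35 was nearly as high on wild-type dermis replicate 1, at 4.30, against -1.45 and -0.31 on the other wild-type dermis arrays. Krt33a and Krt82 measured 1.03 and 1.68 on that wild-type array.

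Among the keratin-associated proteins, Krtap5-1 stood alone. It belongs to a family rich in cysteine and known from the human hair cuticle, and 2 probe sets carry its name. Probe set 1450540_x_at, of a kind whose probes may also pair with related sequences, averaged 6.01 over the 18 arrays, and 1450539_at averaged 5.35. The next genes by their best probe set were Krtap10-4 at 3.82, Krtap19-1 at 3.44, Krtap21-1 at 3.28, Krtap12-1 at 3.24, Krtap3-1 at 2.78, Krtap7-1 at 2.74, Krtap17-1 at 2.64, Krtap28-13 at 2.53 and Krtap22-2 at 2.46. These 9 means lie below the median of every array. Krtap19-1, Krtap21-1, Krtap22-2 and Krtap7-1 belong to the class rich in glycine and tyrosine, and Krtap10-4, Krtap12-1, Krtap3-1 and Krtap17-1 to the classes rich in cysteine. The 5 genes with a pair of probe sets differ in how far the pair moves together: across the 18 arrays, which share their tissue and genotype groups, Pearson's r was 0.85 for Krtap5-1, 0.23 for Krtap16-3, 0.20 for Krtap6-3, 0.15 for Krtap19-1 and 0.09 for Krtap12-1.

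In transgenic dermis most members were brighter than in wild-type dermis, but none passed the test. The difference was above 0 for 50 of 55 members, against 45.3% of all probe sets, and its median was 1.58, against -0.06 over all probe sets. The median was 1.67 for the keratin-associated proteins and 0.39 for the hair keratins. With limma and Benjamini-Hochberg adjustment over all probe sets, 0 members were higher and 0 lower at an adjusted p under 0.05, where 0.0222% of all probe sets were higher and 0% lower. The count was also 0 in both directions when all 18 arrays were fitted together, which called 0.0466% of all probe sets higher and 0.0733% lower. Without adjustment, p was under 0.05 for 12 higher members and 0 lower ones, against 1.66% and 2.27% of all probe sets.

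For 12 members the 3 transgenic dermis arrays all lay above the 3 wild-type dermis arrays (21.8% of members, against 3.51% of all probe sets), and for 0 members below (against 5.29%). They were the hair keratins Krt33a, Krt36 and Krt86 and the keratin-associated proteins Krtap3-1, Krtap4-2, Krtap5-2, Krtap8-1, Krtap9-3, Krtap11-1, Krtap13-1, Krtap14 and Krtap17-1. Krtap3-1, a cysteine-rich protein, measured 5.04, 4.23 and 4.60 in transgenic dermis, against 1.59, -0.27 and 3.18 in wild-type dermis. The difference of 3.12 ± 0.91 (SE, n = 3 each) had an adjusted p of 1 by limma. Its transgenic arrays lay close together and its wild-type arrays were spread, the third nearest to the transgenic values. Krtap9-3, of a very cysteine-rich family, measured 5.41, 3.25 and 3.22 in transgenic dermis, against 0.34, -0.46 and -1.10 in wild-type dermis. It had the lowest adjusted p of the members in this comparison, 0.614 by limma, with a difference of 4.36 ± 0.98. The nearest arrays of the genotypes were more than 2 log2 units apart.

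Krtap8-1, named like Krtap4-2 below after its values were seen, measured 7.17, 4.80 and 3.68 in transgenic dermis, against 3.48, -0.66 and -1.5 in wild-type dermis. The difference was 4.77 ± 1.32 (limma, adjusted p = 0.963). The brightest wild-type array was just below the dimmest transgenic one. Krtap4-2 measured 5.16, 2.91 and 2.63 in transgenic dermis, against -0.52, -1.94 and -0.002 in wild-type dermis, a difference of 4.39 ± 1.07 (limma, adjusted p = 0.680). Krtap17-1 measured 4.97, 4.77 and 3.92 in transgenic dermis, against 2.91, 1.97 and 2.20 in wild-type dermis, a difference of 2.19 ± 0.67 (limma, adjusted p = 1). Both sets of arrays were clearly apart in these 2 genes. Among the hair keratins, Krt86 measured 4.55, 3.40 and 4.11 in transgenic dermis, against 3.29, 0.73 and 2.26 in wild-type dermis, a difference of 1.93 ± 0.84 (limma, adjusted p = 1). The lowest transgenic array was just above the highest wild-type one.

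The dermal shift was smaller without transgenic dermis replicate 1 and kept its sign. The members' median difference was then 1.0, with 42 of 55 above 0, and 15 members (27.3%) lay apart and higher, against 17.5% of all probe sets for 2 arrays against 3. Leaving out the other arrays in turn gave medians between 1.09 and 2.24. On the scale of log2(linear signal + 16), which damps dim values, the median was 0.31, against -0.01 over all probe sets. A filter that keeps probe sets with a mean past the 30th percentile left 14 of the 55 members. Their median was 0.36, against -0.09 over all probe sets kept.

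**Figure D3:**
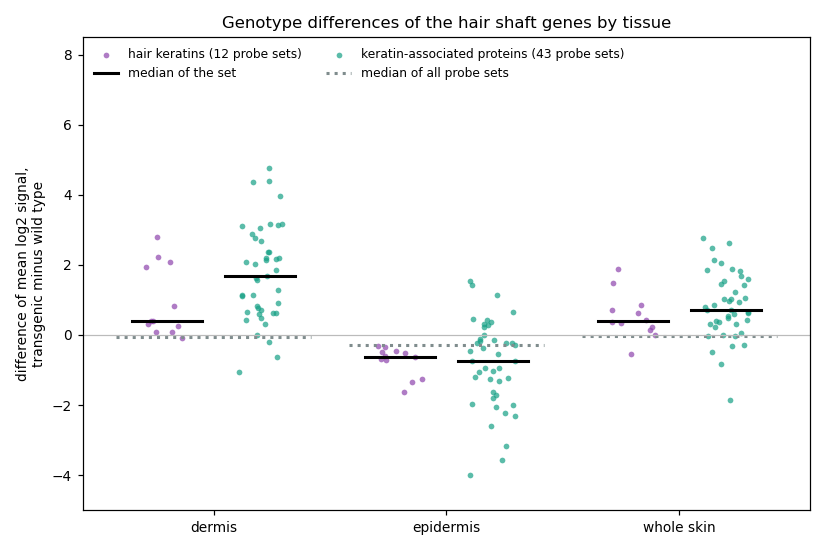
Transgenic minus wild-type difference in mean log2 signal for each member (points) in dermis, epidermis and whole skin, hair keratins left of keratin-associated proteins; black bars are the median of each class and dotted grey bars the median over all probe sets. The class medians in dermis are 0.39 for hair keratins and 1.67 for keratin-associated proteins. In dermis 50 of 55 points lie above 0 (median 1.58), in epidermis 11 (median -0.62) and in whole skin 46 (median 0.65).

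In transgenic epidermis the members were, on balance, dimmer than in wild-type epidermis, and again none passed the test. The difference was above 0 for 11 of 55 members and for 0 of the 12 hair keratins, against 35.1% of all probe sets. Its median was -0.62, against -0.30 over all probe sets. The shift of all probe sets depends on the scaling: after quantile normalization the medians were -0.24 for the members and -0.03 for all, and on the scale of log2(linear signal + 16) they were -0.16 and -0.14. At an adjusted p under 0.05 (limma), 0 members were higher and 0 lower, against 0.651% and 0.42% of all probe sets. Without adjustment, p was under 0.05 for 0 higher and 7 lower members, against 5.38% and 9.85% of all probe sets. The 7 members whose transgenic arrays all lay below the wild-type ones made 12.7% of the members, close to the 14% of all probe sets, and none lay above (6.37% of all).

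Krt32 differed by -1.34 ± 0.36 in epidermis, with means of 5.73 ± 0.57 in transgenic and 7.07 ± 0.32 in wild-type mice (SD, n = 3 each; limma, adjusted p = 0.110). It was called lower when all 18 arrays were fitted together, as the only member called in either direction, where 1.71% of all probe sets were called higher and 1.83% lower. Krtap3-1 measured 1.05, 1.62 and 1.5 in transgenic epidermis, against 5.57, 3.22 and 4.89 in wild-type epidermis, a difference of -3.17 ± 0.83 (limma, adjusted p = 0.0986). Every transgenic array lay below every wild-type array, and the transgenic arrays lay close together. Krtap4-1, named after its values were seen, measured -1.58, -1.46 and -1.22 in transgenic epidermis, against 3.76, 1.46 and 2.48 in wild-type epidermis, a difference of -3.98 ± 1.04 (limma, adjusted p = 0.0995). Without wild-type epidermis replicate 2, which had the lowest member median of its group, 3 members were called lower, Krt32, Krtap3-1 and Krtap4-1, and the median difference was -1.09. That is 5.45% of the members, where 2.08% of all probe sets were called lower, against 0.42% with every array. Without wild-type epidermis replicate 1 the median was -0.39, against -0.22 over all probe sets, and 0 members were called.

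In whole skin the members' median difference was 0.65, against -0.02 over all probe sets, and 46 of 55 were above 0, against 48%. With limma, 0 members were higher and 0 lower at an adjusted p under 0.05, against 0.562% and 0.384% of all probe sets. All 18 arrays fitted together also gave 0 members, against 0.0644% and 0.00666% of all probe sets. Unadjusted, 2 higher and 2 lower members had p under 0.05, against 5.82% and 6.76% of all probe sets. The transgenic arrays lay above the wild-type ones for 2 members, Krtap19-9b and Krt84, and below for 1, Krtap12-1 (1450536_s_at), against 8.44% and 10% of all probe sets. Krt84 measured 4.08, 4.19 and 4.02 in transgenic whole skin, against 3.92, 3.81 and 3.52 in wild-type whole skin, a difference of 0.35 ± 0.28 (limma, adjusted p = 0.677). The shift rested on transgenic whole skin replicate 1. Without it the median was -0.01 and 27 of 55 members were above 0. Without transgenic whole skin replicate 3, the dimmest array, the median was 1.5, and 22 members (40%) lay apart and higher, against 14.1% of all probe sets.

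Krtap8-1 shows that spread between arrays: it measured 6.87, 3.13 and -0.33 in transgenic whole skin, against -0.96, 4.08 and -0.89 in wild-type whole skin. The difference of 2.48 ± 1.78 (limma, adjusted p = 0.627) is smaller than the range within either genotype. The second wild-type array exceeded 2 of the 3 transgenic ones.

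**Figure D4:**
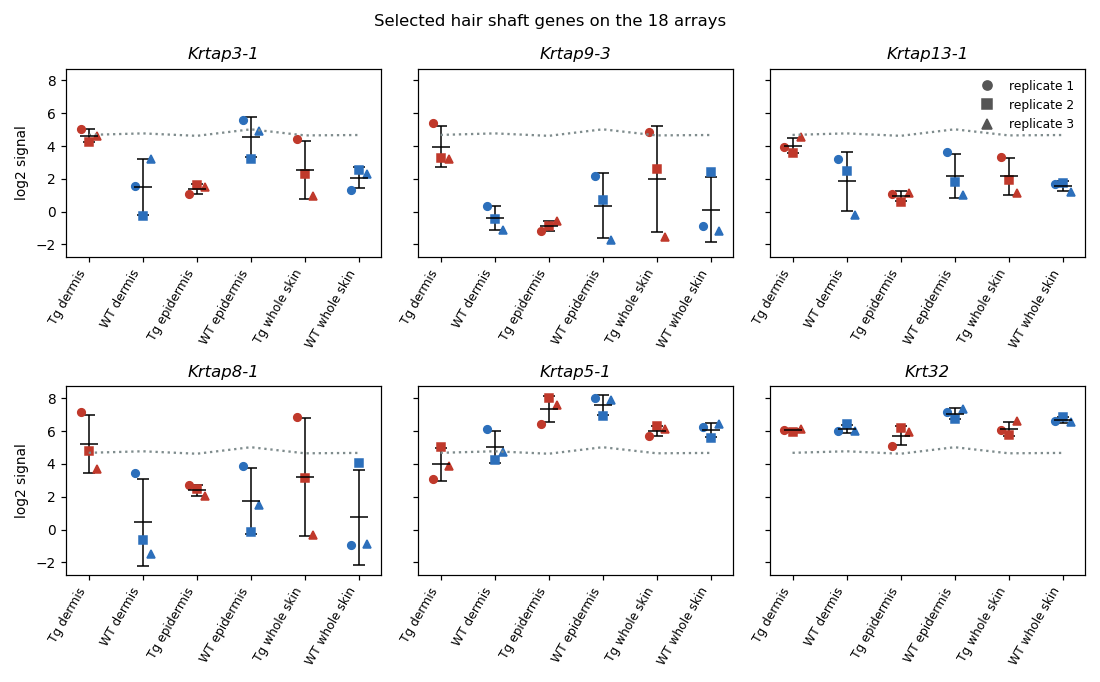
Log2 signal of single members in each group, transgenic left of wild type; circle, square and triangle are replicates 1, 2 and 3 and bars are mean ± SD (n = 3), and the dotted line is the mean of the arrays' medians over all probe sets. Krtap3-1 is higher in transgenic than in wild-type dermis on every array and lower in transgenic than in wild-type epidermis on every array, and Krtap5-1 (1450540_x_at) is highest in epidermis of both genotypes.

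The layers were compared within each genotype, and Krtap5-1 was lower in dermis in both. Its 1450540_x_at probe set measured 3.06, 5.04 and 3.84 in transgenic dermis, against 6.44, 8.01 and 7.60 in transgenic epidermis, a difference of -3.37 ± 0.57 (limma, adjusted p = 0.00403). The same probe set measured 6.11, 4.24 and 4.73 in wild-type dermis, against 8.0, 6.89 and 7.88 in wild-type epidermis, a difference of -2.56 ± 0.47 (limma, adjusted p = 0.00499). The dermis arrays lay below the epidermis arrays in both genotypes. Probe set 1450539_at fell in dermis as well, by 2.33 ± 0.48 in transgenic mice (limma, adjusted p = 0.0113) and by 3.83 ± 0.72 in wild-type mice (limma, adjusted p = 0.00527). The difference between the genotype effects of the layers was not called for either probe set (limma, adjusted p = 0.803 for 1450540_x_at and 0.722 for 1450539_at).

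In wild-type mice 0 members were higher in dermis and 3 lower, against 6.16% and 6.19% of all probe sets. The 3 were the Krtap5-1 pair and Krtap6-3 (1427842_at), of the class rich in glycine and tyrosine, which measured 0.45, -1.99 and -0.97 in dermis, against 3.18, 1.70 and 3.28 in epidermis, a difference of -3.56 ± 1.04 (limma, adjusted p = 0.0423). The call for Krtap6-3 was lost on the scale of log2(linear signal + 16) and after quantile normalization, and its other probe set was not called. The median difference of the members was -1.02, against -0.30 over all probe sets, with 7 of 55 above 0, against 38.8%. For 13 members all dermis arrays lay below all epidermis arrays and for 0 above, against 20.7% and 13.1% of all probe sets. Unadjusted, 10 lower and 0 higher members had p under 0.05, against 16.9% and 12% of all probe sets. Without wild-type epidermis replicate 2, 10 members (18.2%) were called lower, against 9.23% of all probe sets. The median was smaller on the scale of log2(linear signal + 16), at -0.21 for the members and -0.13 for all probe sets, and after quantile normalization, at -0.67 and -0.11. With all 18 arrays fitted together 6 were lower and 0 higher, against 9.07% and 9.06% of all probe sets.

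In transgenic mice 3 members rose in dermis over epidermis and 2, the Krtap5-1 pair, fell, against 4.67% and 4.04% of all probe sets. Krtap9-3 measured 5.41, 3.25 and 3.22 in transgenic dermis, against -1.20, -0.90 and -0.59 in transgenic epidermis, a difference of 4.85 ± 1.01 (limma, adjusted p = 0.0125). Krtap3-1 differed by 3.23 ± 0.74 (limma, adjusted p = 0.0200), with means of 4.62 ± 0.40 in dermis and 1.39 ± 0.30 in epidermis (SD, n = 3 each). Krtap13-1, a cysteine-rich protein, measured 3.93, 3.60 and 4.52 in transgenic dermis, against 1.10, 0.58 and 1.16 in transgenic epidermis, a difference of 3.07 ± 0.82 (limma, adjusted p = 0.0389). In all 3 every dermis array exceeded every epidermis array. The median over the members was 0.68, against -0.02 over all probe sets, with 48 of 55 above 0, against 49%. For 8 members all dermis arrays lay above all epidermis arrays and for 2 below, against 13.3% and 13.9% of all probe sets. Unadjusted, 11 higher and 2 lower members had p under 0.05, against 11.1% and 11% of all probe sets. With all 18 arrays fitted together 4 were higher and 2 lower, against 9.48% and 9.74%. Krtap9-3 was called without each array in turn, whereas it was not called on the scale of log2(linear signal + 16). Without transgenic dermis replicate 2, or without transgenic epidermis replicate 2 or 3, it was the 1 member higher (1.82%), where 2.25%, 2.57% and 2.61% of all probe sets were higher. Without transgenic dermis replicate 3 there were 6 (10.9%), against 4.18% of all probe sets, and without transgenic dermis replicate 1 there were 2 (3.64%), against 6.94%. Without transgenic epidermis replicate 2 or 3, 1 of the 2 Krtap5-1 probe sets was lower, against 1.49% and 1.54% of all probe sets. All 3 are too dim for a filter that keeps probe sets with a mean past the 30th percentile, and that filter leaves 0 members higher. The median over the members was 0.35 without transgenic dermis replicate 1, against 0.15 over all probe sets, 1.30 without replicate 2 and 1.06 without replicate 3, and 0.21 with the filter.

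The genotype effect in dermis exceeded that in epidermis for 51 of 55 members, against 57.9% of all probe sets, with a median of 2.26, against 0.19 over all probe sets. After quantile normalization these medians were 1.61 and -0.01, on the scale of log2(linear signal + 16) 0.54 and 0.12, and with the filter on dim probe sets 1.10 and 0.06. Without transgenic dermis replicate 1 they were 1.69 and 0.32. No member passed the test of this difference: 0 were higher and 0 lower at an adjusted p under 0.05 (limma), against 0.00888% and 0.00666% of all probe sets. All 18 arrays fitted together also gave 0, against 0.0377% and 0.0555% of all probe sets. Unadjusted, 15 higher and 0 lower members had p under 0.05, against 4.02% and 3.14% of all probe sets. Krtap3-1 had the lowest adjusted p, 0.227, for a difference of 6.29 ± 1.24. This comparison uses the arrays of the dermis and epidermis comparisons above and is not separate evidence.

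Other genes of the follicle give the setting of the shaft genes. The list of inner root sheath and companion layer genes, which encode the keratins and trichohyalin of the sheath that moulds the shaft, was chosen with earlier results of these data known, and 10 of its 11 genes were found. In dermis 4 of the 10 rose in transgenic mice and 0 fell, and the median difference was 4.92. Krt25, a sheath keratin, measured 10.26, 10.38 and 9.66 in transgenic dermis, against 1.62, 1.34 and 1.98 in wild-type dermis, a difference of 8.45 ± 0.38 (limma, adjusted p = 6.25e-06). Krt27, Krt71 and Tchh rose by 8.26 ± 0.74 (adjusted p = 0.00377), 5.79 ± 0.56 (adjusted p = 0.00432) and 4.51 ± 0.36 (adjusted p = 0.00152), all by limma. Krt71 was not called on the scale of log2(linear signal + 16) (limma, adjusted p = 0.0519). When all 18 arrays were fitted together 3 of the 10 rose, Krt27, Tchh and Krt73, while Krt25 (limma, adjusted p = 0.154) and Krt71 (limma, adjusted p = 0.0778) were not called. The 3 transgenic dermis arrays were close to each other for Krt25, and replicate 1 did not stand apart. Other sheath genes differed in this. Krt26 measured 7.97 on replicate 1, against 5.82 and 5.69 on the other arrays. Krt72 measured 4.73 there, against 2.79 and 1.80, and Krt73 7.09, against 4.73 and 5.36. Krt71, Krt75, Tchh and Tchhl1 were, like Krt25, highest on replicate 2.

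The medians over the sheath list were 7.81, 7.69 and 6.68 in transgenic dermis, against 2.63, 2.21 and 1.97 in wild-type dermis. In whole skin they were 6.35, 5.60 and 2.76 in transgenic mice, against 2.58, 4.68 and 2.21 in wild-type mice. The third transgenic whole skin array, lowest for the members, was lowest of its group for the sheath list too. Only Krt73 of the sheath list rose in epidermis, by 4.39 ± 0.79 (limma, adjusted p = 0.0196), and in whole skin, by 4.26 ± 0.46 (limma, adjusted p = 0.00391).

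**Figure D5:**
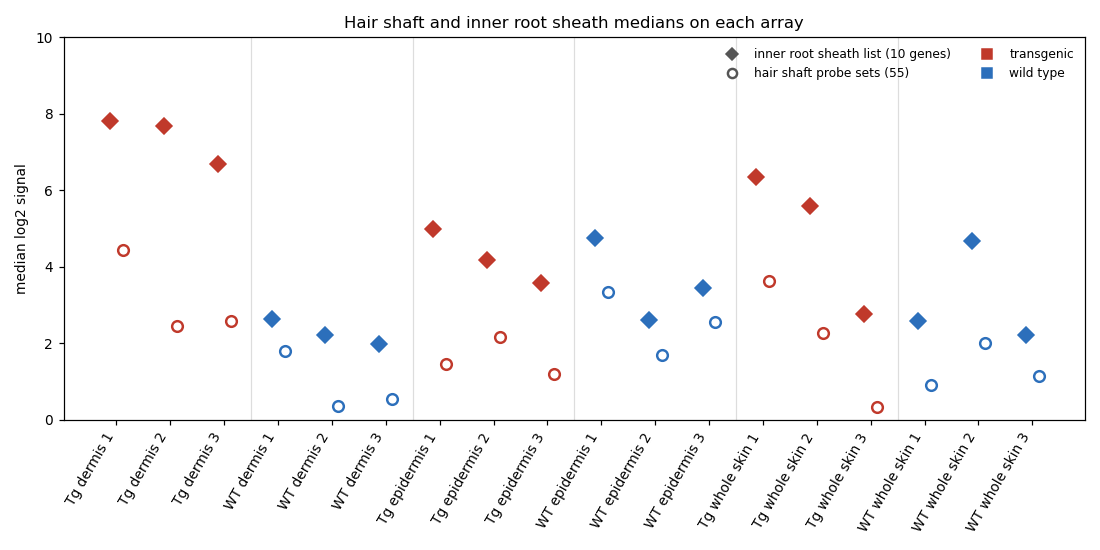
Median log2 signal of the 55 members and of the 10 inner root sheath genes (open circles for the members, filled diamonds for the sheath genes) on each array, transgenic left of wild type in each tissue. In transgenic dermis the sheath median is 7.81, 7.69 and 6.68 and the member median 4.45, 2.44 and 2.59. The first array stands apart by the member median and not by the sheath median, though single sheath genes differ.

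Of 9 other hair shaft proteins found, Prr9, a proline-rich protein, rose in transgenic dermis by 4.16 ± 0.41 (limma, adjusted p = 0.00432), with 9.72, 8.61 and 8.28 in transgenic dermis, against 4.80, 5.03 and 4.30 in wild-type dermis. Its genotype effect in dermis exceeded that in epidermis by 4.26 ± 0.61 (limma, adjusted p = 0.0485), a call lost when all 18 arrays were fitted together (limma, adjusted p = 0.0680). Lrrc15, a leucine-rich repeat membrane protein, rose in epidermis by 4.22 ± 0.41 (limma, adjusted p = 0.000312) and in whole skin by 2.71 ± 0.47 (limma, adjusted p = 0.0307). Its whole skin call was lost when all 18 arrays were fitted together (limma, adjusted p = 0.0656) and on the scale of log2(linear signal + 16) (limma, adjusted p = 0.0709). Of 15 regulators and matrix signals of the shaft, 0 were called in dermis or whole skin by limma, with 1 higher and 2 lower at an unadjusted p under 0.05 in each. In epidermis 1 was called, Gata3, a transcription factor of the inner root sheath and epidermis, which fell by 1.49 ± 0.27 (limma, adjusted p = 0.0194). In dermis Gata3 measured 5.82, 6.27 and 5.49 in transgenic mice, against 7.97, 7.52 and 7.17 in wild-type mice, so the genotypes did not overlap. Its dermal difference was -1.69 ± 0.35 (limma, adjusted p = 0.468) and was called when all 18 arrays were fitted together (limma, adjusted p = 0.0228).

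Of 12 genes of follicle stem cells and resting follicles, 4 fell in transgenic epidermis (Krt15, Lgr6, Fgf18 and Bmp4) and 1 rose (Sox9). The shares of all probe sets there were 0.42% lower and 0.651% higher. In whole skin 2 of the 12 were called lower and 0 higher, against 0.384% and 0.562% of all probe sets. When all 18 arrays were fitted together, 0 of the 12 were called in whole skin. In dermis 0 were called by limma, with 0 higher and 2 lower at an unadjusted p under 0.05. Of 13 proliferation genes found, 0 were called in dermis and 4 (Mki67, Top2a, Ccna2 and Mcm5) rose in whole skin, of which 0 were called when all 18 arrays were fitted together. All 13 were above 0 in dermis, with a median difference of 0.67, and 4 had an unadjusted p under 0.05. Markers of other cells were set beside the dermal values. Melanocyte markers, whose cells populate the matrix of pigmented growing follicles, had a median difference of 1.14 in dermis, with 0 of 7 called and 3 at an unadjusted p under 0.05. Their summed linear signal was 963 to 1223 on the transgenic dermis arrays, against 816 to 1051 on the wild-type ones, so the ranges of the sum overlapped. The list's median did not overlap, at 6.30, 6.61 and 7.16 in transgenic dermis, against 4.94, 5.36 and 5.93 in wild-type dermis. Of the 7 markers, 2 lay apart and higher and 0 lower, against 3.51% and 5.29% of all probe sets. Dermal papilla markers had a median difference of 0.37 and a summed signal of 448 to 632 in transgenic dermis, against 395 to 1018 in wild-type dermis. The median difference was -0.68 for basal keratinocyte markers and -0.45 for suprabasal markers, with 0 called in each of these 3 lists. The part of these cells in the members' differences was not tested.

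The tissue labels were checked against defining markers, first in wild-type mice. In dermis against epidermis, 6 of 6 fibroblast, 4 of 5 endothelial and 4 of 4 adipocyte markers found were higher, and 5 of 6 suprabasal keratinocyte markers were lower (limma). Fewer were called in transgenic mice: 3 of 6 fibroblast, 3 of 5 endothelial and 3 of 4 adipocyte markers were higher, and 4 of 6 suprabasal markers lower. Of the follicle lists, 6 of 12 stem cell and resting follicle genes and 5 of 7 melanocyte markers were higher in wild-type dermis. Transcripts from these lists were therefore present in the dermal samples. The dermal papilla list had 3 of 6 higher and 0 lower. Other follicle lists did not rise as sets. The sheath list had 1 of 10 higher and 0 lower, and other hair shaft proteins 1 of 9 higher and 2 lower. Of the 15 regulators and matrix signals, 0 were higher and 4 lower. In each of these lists that did not rise, the median difference was below 0. The lists of sebocyte, skeletal muscle and leukocyte markers gave 0, 0 and 1 higher in wild-type mice, with 1 leukocyte marker lower. Muscle signal varied widely between arrays of a group. The summed linear signal of its markers was 2801, 9577 and 121.5 in transgenic dermis, against 5204, 159.5 and 203.8 in wild-type dermis. Its part in the members' differences was not tested.

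The genes whose values over the 18 arrays were most like the members' mean were Tmem72 (Pearson's r 0.81), Atrip (0.79), Tchhl1 (0.78), Krt26 (0.76), Cd8a (0.76), Gm11563 (0.75), Oaf (0.74), Calhm4 (0.73), Fbp1 (0.73) and Tbc1d22bos (0.73). Krt26 is an inner root sheath keratin and Tchhl1 is related to trichohyalin. Tmem72, Oaf, Calhm4 and Tbc1d22bos lay below the array median on all 18 arrays, and Tmem72 ran only from -2.21 to 0.84. Their likeness therefore concerns dim signal. The likeness is a description over 18 arrays that share tissue and genotype groups.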

How the data were processed

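The authors deposited 1 table of 45037 probe sets on 18 arrays, taken here as log2 values of the MAS5 signal. MAS5, which subtracts mismatch signal and scales arrays to a common mean, is named per the submitters' processing notes, and its version is not given here. The log2 scale was read from the numbers: values ran from -7.52 to 14.42, and the trimmed mean of the linear signal lay between 98.9 and 99.5 on every array. Dim probe sets vary most under MAS5 once logged, and detection calls are not used here. The number of arrays limits the precision.

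Members were found from the platform annotation. Each comparison was fitted with limma 3.58.1 in R 4.3.3 (lmFit, eBayes with a trend) on the arrays of its groups alone, on all probe sets with no filter. P-values were adjusted by Benjamini-Hochberg over all 45037, with a threshold of 0.05. The fit was tested on simulated data. Alternatives were a filter at the 30th percentile (14 of 55 members pass), log2(linear signal + 16), quantile normalization, a common 75th percentile, 1 fit of all arrays, 1 probe set a gene, the replicate number as a block, and leaving out each array. The rule for naming took every hair keratin, the 10 Krtap genes with the highest mean, up to 5 called members a direction and comparison, and the 10 genes most like the members' mean. It also foresaw composition classes from protein sequences, which are not used here, so classes are given from general knowledge. Members and gene lists were chosen with earlier results of these data known. No 2 arrays held identical values.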

Additional observations from a re-analysis of the deposited data

Results flagged for a closer look

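Krtap3-1 and Krtap5-2 lay apart in opposite directions in the separated layers, with every transgenic array above every wild-type array in dermis and below every wild-type array in epidermis. For Krtap3-1 the genotype difference was 3.12 in dermis and -3.17 in epidermis, and the difference between the layers was 6.29 (limma interaction, adjusted p = 0.227). For Krtap5-2, of the same cysteine-rich family as Krtap5-1, it was 3.18 in dermis and -1.99 in epidermis, and the difference between the layers was 5.17 (limma interaction, adjusted p = 0.538). Neither passed the test of that difference, nor the test within either layer (limma, adjusted p = 1 in dermis for both, and 0.0986 for Krtap3-1 and 0.362 for Krtap5-2 in epidermis). These 2 of 55 members make 3.64%, against 0.282% of all probe sets with that pattern, and 0 members had the opposite one, against 0.155%.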

How the results depend on the processing

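The 0 members called between genotypes in dermis, in whole skin and in the difference between layers held under every alternative run. In epidermis, 1 member was lower in the fit of all 18 arrays (1.82%, against 1.83% of all probe sets), and 0 to 3 when 1 array was left out, 3 without wild-type epidermis replicate 2. Over these leave-outs 0.0666% to 2.08% of all probe sets were lower. In wild-type dermis against epidermis, 6 were lower in the fit of all arrays, 5 with the replicate block and 2 to 10 with 1 array left out, where the shares of all probe sets were 9.07%, 6.41% and 2.35% to 9.23%. In transgenic dermis against epidermis, 0 were higher with the filter on dim probe sets, 7 with the replicate block (against 6.34% of all probe sets) and 1 to 6 with 1 array left out (against 2.25% to 6.94%). There, 1 was lower with 1 probe set a gene and 1 to 2 with 1 array left out (against 1.49% to 7.75%). Arrays of different genotypes cannot share a mouse, so pairing could show only within a genotype. Same-number arrays deviated together with r of 0.45, 0.20 and -0.02 in the transgenic layers and 0.04, -0.08 and 0.02 in the wild-type layers. Only probe sets with a mean above the median were used, which leaves out most members. The check does not settle whether the numbers pair samples, and they were not taken to do so. The block gives no pairing, and it changed no other count past 1.5 times. Members' median differences, with the leave-outs chosen after seeing the data, moved by more than the spread between replicates in 4 of 24 settings other than leave-outs and in 0 of 42 leave-outs, where the spread was wide. The cause was not tested. Most members lie near the bottom of the scale, where a small linear change is a large log2 one, and this limits every difference above.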
